A study of Mus musculus with 24 samples.

Results

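The comparison described here is that of Fmr1 KO with wild-type (WT) cortex in total RNA, which used 12 of the 24 arrays of the series. They were the 6 Fmr1 KO and the 6 WT arrays of total lysate RNA, and 17850 of the 45037 probe sets on the array, which stood for 9693 named genes, had a log2 value of at least 4 in at least 6 of these 12 arrays and were tested. A probe set is a group of short probes that reports 1 transcript or a few related ones. The mice were male, of the FVB strain and 7 days old, and the groups were WT animals and paired Fmr1 null littermates, with no treatment named for either. Cerebral cortex was dissected, freed of white matter and homogenized in a buffer with the translation inhibitor cycloheximide. The cortices of 2 mice of a genotype were pooled for each lysate, so the 6 replicates of a genotype were 6 pools. The lysate was spun at up to 20000 g, and 20% of the cleared lysate was set aside as total RNA before the rest went onto a gradient for polyribosomal RNA. Total RNA here is therefore RNA of the cleared cytoplasm, and RNA that pelleted with nuclei and debris was not measured.

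Fmr1 lies on the X chromosome and encodes FMRP, an RNA-binding protein of neurons that associates with polyribosomes and restrains the translation of many of the mRNAs it binds. Its loss causes fragile X syndrome, and the Fmr1 KO mouse is the standard model of that disorder. FMRP is best known as a regulator of translation, and the level of an mRNA in the lysate is the base against which its share on polyribosomes is read. The comparison of total RNA asks which mRNAs differ in amount in Fmr1 KO cortex.

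Few genes passed the test. Besides Fmr1 itself, Haus7 and Maob were lower in Fmr1 KO cortex with 1 probe set per gene, and Lgals1 was lower at 1 of its probe sets. Fundc2 was higher at its brightest probe set (0.42) and lower, without passing, at another (-0.48), so no single direction is given for it. At a limma adjusted p under 0.05, 7 of 17850 probe sets (0.0392%) were called, 1 higher (0.00560%) and 6 lower (0.0336%). Counted by gene they were 4 of 9693 (0.0413%), 1 higher (0.0103%) and 3 lower (0.0310%). With the replicate number as a block, or with all 24 arrays in 1 fit, 4 probe sets were called, the 3 of Fmr1 and that of Haus7. The middle of the distribution was narrow. The log2 difference, Fmr1 KO minus WT, had a median of -0.01 over all genes and lay between -0.17 and 0.13 for the genes from the 5th to the 95th percentile. Its 95% interval reached 0.168 to either side of the value for the median gene. That interval lay wholly within 0.3 log2 units of 0 for 7337 genes, or 75.7% of those tested. Only 7 genes (0.0722%) differed by more than 0.5 and 79 (0.815%) by more than 0.3.

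**Figure D1:**
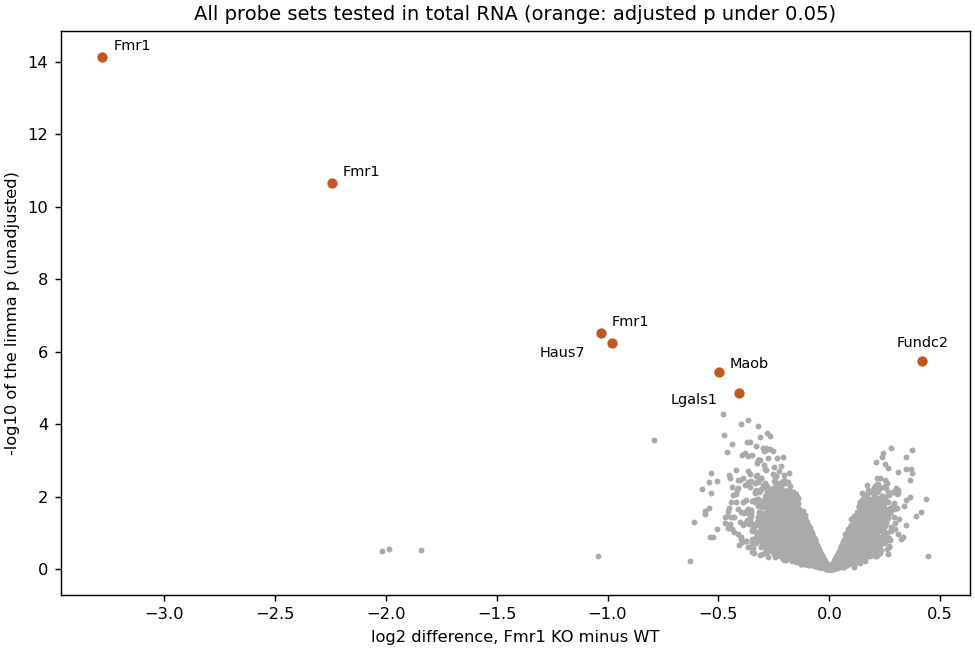
Log2 difference between Fmr1 KO and WT total RNA (x axis) against -log10 of the unadjusted limma p (y axis) for the 17850 probe sets tested. The 7 probe sets with an adjusted p under 0.05 are orange and named, and the 3 of Fmr1 stand farthest to the left, with differences of -3.28, -2.24 and -1.03.

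Arrays of the 2 genotypes were as alike as arrays of the same genotype. Pearson's r across the tested probe sets was 0.987 to 0.996 between arrays of a genotype and 0.988 to 0.997 between arrays of different genotypes. On each array 39.1% to 40.0% of probe sets passed a log2 of 4, and the median SD of a gene was 0.132 in WT and 0.131 in Fmr1 KO. The number of arrays limits the precision. Markers of the cortex were present, with 22 of 22 excitatory neuron markers on the array measured. Of 15 listed blood cell markers 10 had a probe set of their own, and 0 of these passed the filter. Probe sets with several symbols were not named, and Hbb-b1, Hbb-bs and Hbb-bt had none of their own. Blood content therefore cannot be judged from this count.

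Fmr1, the gene knocked out, fell at each of its 3 probe sets. At the probe set with the strongest signal (1423369_at) the WT arrays lay at 9.40 to 9.93 on the log2 scale, with a median of 9.66, and the Fmr1 KO arrays at 6.16 to 6.62, with a median of 6.38. The difference was -3.28 (SE 0.094, limma adjusted p = 1.29e-10, n = 6 against 6), and the groups lay far apart. The probe set kept a signal above the filter of 4 in all Fmr1 KO arrays. At the probe set 1426086_a_at the WT arrays lay at 6.22 to 7.01 (median 6.79) and the Fmr1 KO arrays at 4.24 to 4.59 (median 4.47). The difference there was -2.24 (SE 0.116, limma adjusted p = 1.95e-07). At 1452550_a_at the WT arrays lay at 4.46 to 4.87 (median 4.60) and all 6 Fmr1 KO arrays were below the filter, at 3.26 to 3.86 (median 3.71). The exact permutation p, two-sided, was 0.00216 for each probe set, which is the lowest value possible with 924 ways to split 12 arrays. With the replicate number as a block all 3 kept their calls.

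Haus7 showed the largest difference after Fmr1 among the genes that passed. It encodes a subunit of augmin, the complex that recruits gamma-tubulin to the sides of microtubules so that new microtubules branch from old ones in the spindle and in neurons. The WT arrays lay at 5.62, 6.17 and 6.35 on the log2 scale (lowest, median and highest), and the Fmr1 KO arrays at 4.85, 5.11 and 5.30. Every Fmr1 KO array was lower than every WT array, and the WT pool closest to the Fmr1 KO range was number 2. Haus7 fell by 0.98 (SE 0.113, 95% interval -1.22 to -0.74, limma adjusted p = 0.00250), a 1.97-fold difference, and all 6 same-numbered pairs ran the same way, as they did for 568 of all genes (5.86%). With the replicate number as a block its adjusted p was 0.0173. In bulk RNA of this kind, fewer cells of a type and less RNA per cell cannot be told apart.

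No other augmin subunit passed. Of the 8 subunits 6 had a measured probe set, and Haus7 was the only member called and the only member with an unadjusted p under 0.05. Haus3 stood at -0.23 (95% interval -0.50 to 0.04) and Haus1 at 0.17 (-0.06 to 0.40). Haus8, Haus4 and Haus2 stood at -0.05, 0.02 and 0.01. None of these 5 passed, and the interval of each included 0. The intervals of Haus8, Haus4 and Haus2 lay wholly within 0.3 log2 units of 0, and those of Haus3 and Haus1 reached beyond it.

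Maob encodes monoamine oxidase B, an enzyme of the outer mitochondrial membrane that degrades phenylethylamine and dopamine and is found mainly in astrocytes and serotonergic neurons. Its WT arrays lay at 4.69, 4.93 and 5.08 (lowest, median and highest) and its Fmr1 KO arrays at 4.34, 4.47 and 4.50. The groups did not overlap, but all values were close to the filter of 4. Maob fell by 0.50 (SE 0.067, 95% interval -0.64 to -0.35, limma adjusted p = 0.0105), a 1.41-fold difference. With the replicate number as a block it no longer passed (adjusted p = 0.0698).

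The rest of monoamine metabolism gave no further call. Of 24 listed genes 12 were measured, and Maob was the only member with an unadjusted p under 0.05. Maoa, the paralog that lies next to Maob and degrades serotonin and noradrenaline, stood at -0.07 (95% interval -0.35 to 0.20). Tph2, the neuronal enzyme of serotonin synthesis, stood at -0.16, and the vesicular monoamine transporter gene Slc18a2 and the noradrenaline-synthesis gene Dbh at 0.00 each. Aldehyde dehydrogenase genes lay between -0.08 (Aldh3a2) and 0.03 (Aldh2). The tetrahydrobiopterin genes Pts, Qdpr and Spr stood at -0.07, -0.05 and 0.00, and the histamine methyltransferase gene Hnmt at -0.01. The list of astrocyte markers had a median of -0.04 and no called member.

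Fundc2, which encodes a protein of the outer mitochondrial membrane related to the mitophagy receptor Fundc1, gave opposite answers at its probe sets. At 1428316_a_at the WT arrays lay at 8.32, 8.40 and 8.47 (lowest, median and highest) and the Fmr1 KO arrays at 8.70, 8.82 and 8.91. Fundc2 rose by 0.42 at this probe set (SE 0.053, 95% interval 0.30 to 0.53, limma adjusted p = 0.00659), the only rise called, and it did not pass with the replicate number as a block (adjusted p = 0.0852). At 1460434_at the order was reversed. There the WT arrays lay at 8.10, 8.29 and 8.60 and the Fmr1 KO arrays at 7.69, 7.84 and 8.04, a difference of -0.48 (95% interval -0.66 to -0.30, limma adjusted p = 0.116). The groups were apart at each of the 2 probe sets, in opposite directions, and all 6 same-numbered pairs ran each way. Another probe set (1428317_at), with means of 4.05 in WT and 3.64 in Fmr1 KO, did not pass the filter.

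The 2 Fundc2 probe sets were then compared within each array, a contrast chosen after their values were seen. The value of 1428316_a_at minus that of 1460434_at averaged 0.07 ± 0.16 (SD) over the 6 WT arrays and 0.97 ± 0.13 (SD) over the 6 Fmr1 KO arrays. It ranged from -0.21 to 0.22 in WT and from 0.85 to 1.22 in Fmr1 KO. An exact permutation test of this contrast is not used, since the pair of probe sets was picked for this difference. No single direction is given for Fundc2 RNA. The mean of its tested probe sets was not called. Of 22 measured mitophagy receptors and regulators Fundc2 was the only member with an unadjusted p under 0.05. Fundc1 stood at 0.11, the receptor gene Bnip3 at -0.13 (95% interval -0.29 to 0.04), and 20 of the 22 intervals lay within 0.3 of 0.

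Lgals1, on chromosome 15, was the only called gene off the X chromosome. It encodes galectin-1, a secreted lectin that binds beta-galactosides on cell surfaces. At 1419573_a_at the WT arrays lay at 5.91, 5.98 and 6.12 (lowest, median and highest) and the Fmr1 KO arrays at 5.49, 5.59 and 5.76. The groups did not overlap, and this probe set fell by 0.41 (SE 0.062, limma adjusted p = 0.0361), a 1.33-fold difference. The probe set with the stronger Lgals1 signal, 1455439_a_at, lay at 8.34, 8.41 and 8.63 in WT and at 8.17, 8.28 and 8.31 in Fmr1 KO, and it did not pass at -0.18 (limma adjusted p = 0.837). Its groups did not overlap either. The call at 1419573_a_at was lost with the replicate number as a block (adjusted p = 0.155) and without any single array except Fmr1 KO array 6 (adjusted p = 0.0513 to 0.141 without another array, 0.0227 without that array). The other galectins measured, Lgalsl and Lgals8, stood at 0.01 and -0.01.

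**Figure D2:**
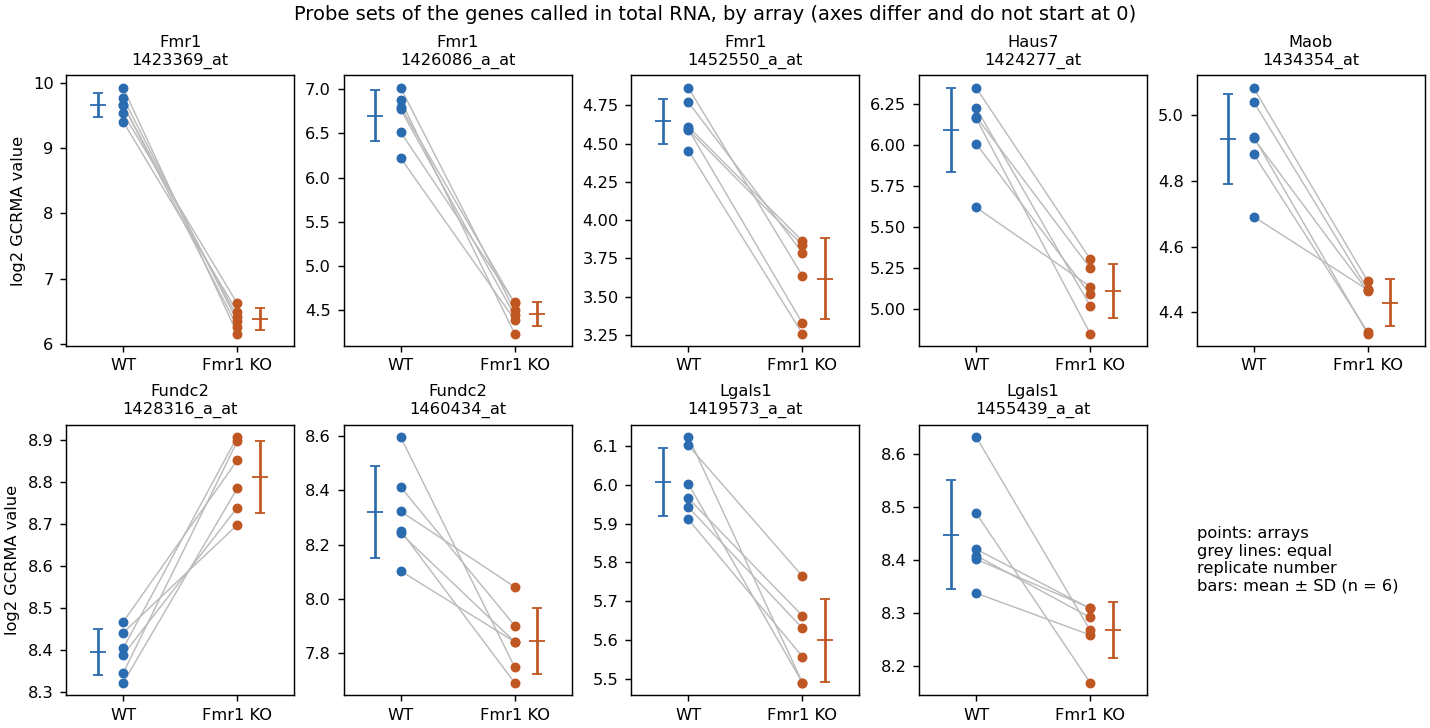
Log2 GCRMA values of each of the 12 total RNA arrays at the tested probe sets of Fmr1, Haus7, Maob, Fundc2 and Lgals1, with grey lines between arrays of equal replicate number and bars for the mean ± SD (n = 6). At each probe set shown the WT and Fmr1 KO arrays do not overlap, and the 2 Fundc2 probe sets run in opposite directions, by 0.42 and -0.48.

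Polyribosomal RNA came from the same lysates and is no independent sample, and its values are set beside those of total RNA. There the difference was -3.71 for Fmr1 at 1423369_at, -0.95 for Haus7 and -0.51 for Maob. Of these Fmr1 alone passed in polyribosomal RNA (limma adjusted p = 4.36e-08), and Haus7 (0.270) and Maob (0.9999) did not. The Fundc2 probe sets stood at 0.59 (1428316_a_at) and -0.32 (1460434_at), in the same opposite order. Lgals1 stood at -0.12 (1419573_a_at), against -0.41 in total RNA. Neither gene passed in polyribosomal RNA (limma adjusted p = 0.9999 at each of these probe sets). The differences between genotypes in total and polyribosomal RNA were tested within lysates, and no named probe set passed (limma adjusted p = 0.999 for Haus7, Maob, Fundc2 and Lgals1). The value farthest apart was that of Fmr1 at 1426086_a_at, at -2.24 in total and -3.18 in polyribosomal RNA (adjusted p = 0.999).

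Haus7, Maob and Fundc2 share the X chromosome with Fmr1. All 4 genes called with 1 probe set each are X-linked, of 331 X-linked genes measured, and none of 9329 autosomal genes was called in this way. The X-linked genes had a median of -0.02, against -0.01 for autosomal genes, and without Fmr1 5 had higher and 13 lower values at an unadjusted p under 0.05, or 5.45% of 330. Over all genes 486 (5.01%) reached that limit, 156 higher (1.61%) and 330 lower (3.40%), and single autosomes ranged from 2.56% (chromosome 16) to 7.73% (chromosome 13). Over all probe sets 892 (5.00%) reached it, 304 higher (1.70%) and 588 lower (3.29%). The lower share, 65.9% of the 892, depended on the scaling of the arrays, and it was 45.1% after quantile normalization and 47.8% after median centring.

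Genes close to Fmr1 in gene order held a larger share of such values than genes far from it. Of the 25 measured genes on each side, 7 of 50 (14%) were lower at an unadjusted p under 0.05 and none was higher. With 50 genes on each side the count was 9 lower and 2 higher of 100 (11%), and with 100 on each side 12 lower and 4 higher of 200 (8%). Of the 130 X-linked genes farther away 1 was higher and 1 lower (1.54%). The median difference was -0.02 in each of these windows. Values below 0 were those of 33 of the 50 nearest genes and 86 of the 130 farther ones, against 55.5% of all genes. These are counts on the deposited scale, and they were not repeated after rescaling. Over all 9693 genes 5378 were below 0 on that scale, and 4556 and 4518 after quantile normalization and median centring. Among the 50 nearest genes Haus7 was the only gene called, and no test was made of these counts. With all 24 arrays in 1 fit the count among the 50 was 4.

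Of the 25 measured genes before Fmr1, 3 were among these 7. Slitrk2, the nearest measured gene on that side, encodes a synaptic adhesion protein. Its WT arrays lay at 6.21, 6.39 and 6.95 (lowest, median and highest) and its Fmr1 KO arrays at 5.74, 6.15 and 6.30, with a difference of -0.41 (limma adjusted p = 0.837). The groups overlapped slightly, and all 6 same-numbered pairs were lower in Fmr1 KO. Slitrk4, the next measured gene, stood at -0.06. Farther out, Rtl8c, a gene derived from a retrotransposon, stood at -0.18 and the purine salvage gene Hprt at -0.14, also lower in 6 of 6 pairs each. Genes between these lay on either side of 0, such as Gm715 at 0.16, Sox3 at 0.06 and Mcf2 at -0.14.

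Of the 25 measured genes after Fmr1, 4 were among the 7. Nsdhl encodes a dehydrogenase that removes methyl groups from sterols in cholesterol synthesis. Its WT arrays lay at 8.99, 9.13 and 9.23 and its Fmr1 KO arrays at 8.78, 8.84 and 8.96, so the groups were apart, at -0.28 (limma adjusted p = 0.259). Haus7 followed 3 measured genes later. Gabra3, a GABA-A receptor subunit gene, stood at -0.20, and Pnck, a calcium/calmodulin-dependent kinase gene, at -0.21. Neither passed (adjusted p = 0.982 and 0.951). The first 6 measured genes after Fmr1 were, in order, Ids at -0.01, Eola1 at -0.12, Tmem185a at -0.05, Mtm1 at -0.08, Mtmr1 at -0.05 and Cd99l2 at 0.02, and none had an unadjusted p under 0.05.

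Fundc2 was the 37th and Maob the 74th measured gene from Fmr1, on opposite sides. Between the 26th and the 50th gene on each side, the other genes at an unadjusted p under 0.05 were Lage3, a tRNA modification gene, at 0.14, the actin-bundling gene Pls3 at -0.12 and C330007P06Rik at -0.23. None of the 3 passed.

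**Figure D3:**
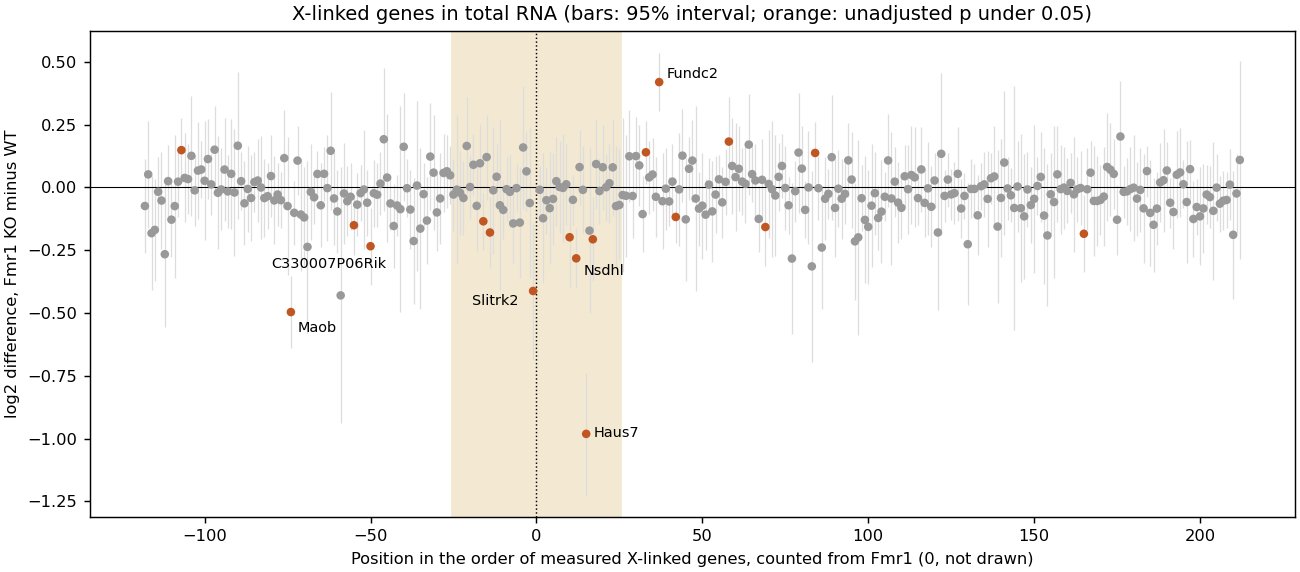
Log2 difference between Fmr1 KO and WT total RNA (y axis) of the 330 measured X-linked genes other than Fmr1, by their rank from Fmr1 in gene order (x axis), with 95% intervals and the 25 nearest genes on each side shaded. Genes with an unadjusted p under 0.05 are orange. Of the 50 in the shaded window 7 are orange, all below 0, and the lowest is Haus7 at -0.98.

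Beyond the called genes, the 12 falls with the smallest p were, besides Fmr1, Haus7 and Maob, 9 genes of which none passed. They were chosen for their small p, and their values are given as a description. Hebp1, a heme-binding protein gene, had WT arrays at 7.69, 7.94 and 8.19 and Fmr1 KO arrays at 7.45, 7.53 and 7.68, a difference of -0.40 (limma adjusted p = 0.177). Ikbip, which encodes a protein that binds the kinase IKK-beta, stood at -0.37 (0.148), and Gdf10, a ligand of the BMP family, at -0.32 (0.185). At these 3 genes the groups were just apart. Rgs13, a regulator of G protein signalling, showed the largest value of the 9, at -0.79 (adjusted p = 0.301), with WT arrays from 4.76 to 5.75 and Fmr1 KO arrays from 4.27 to 4.78 that overlapped. The synaptotagmin gene Syt9 stood at -0.47 (0.260), the PDZ protein gene Pdzd2 at -0.31 (0.260), the fatty acid oxidation gene Acadm at -0.29 and the PARP family gene Parp8 at -0.27 (0.341 each). Nsdhl is described above.

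In polyribosomal RNA of the same lysates some of these 9 kept their size and others were smaller. Gdf10 stood at -0.35, Nsdhl at -0.37 and Pdzd2 at -0.27. Hebp1, Ikbip and Acadm stood at -0.11, -0.05 and -0.07, and Syt9 and Parp8 at -0.18 and -0.11. Rgs13 stood at -0.44, with all its polyribosomal arrays below a log2 of 4. None of these differences between RNA kinds passed (limma adjusted p = 0.999 for each of the 9).

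The 12 rises with the smallest p were, besides Fundc2, 11 genes of which none passed. Pla2g3, a secreted phospholipase A2 gene, had WT arrays at 4.97, 5.11 and 5.38 and Fmr1 KO arrays at 5.25, 5.55 and 5.68, a difference of 0.37 (limma adjusted p = 0.341). The groups overlapped. Kcnab3, a beta subunit gene of voltage-gated potassium channels, stood at 0.35 (0.389) and the presynaptic active zone gene Rims3 at 0.34 (0.594). Lzts1, which encodes a postsynaptic scaffold, stood at 0.36 (0.766) in total RNA and at -0.01 in polyribosomal RNA.

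Smaller differences with groups that were apart were those of the collagen galactosyltransferase gene Colgalt1 at 0.24, the glycosaminoglycan linker gene B4galt7 at 0.26, the iron-sulfur cluster gene Lyrm4 at 0.25 and the peroxisome gene Pex6 at 0.17. The others were the zinc finger gene Zfp12 at 0.22, the immune checkpoint gene Cd276 at 0.21 and the potassium channel gene Kcnk3 at 0.20. Over all genes the WT and Fmr1 KO arrays did not overlap for 32 (0.330%), 11 higher (0.113%) and 21 lower (0.217%) in Fmr1 KO.

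Gene lists of the pathways tied to FMRP were read next, as counts and medians beside those of all genes. Of 34 measured members of the FMRP family and its protein partners, Fmr1 was called. At an unadjusted p under 0.05, 3 were lower, Fmr1 among them, and none higher. Tnrc6c, an Argonaute-binding protein gene, stood at -0.25 (95% interval -0.46 to -0.04), and the other members lay between -0.13 and 0.14. The list median was -0.03, against -0.01 for all genes, and 28 of 34 intervals lay within 0.3 of 0.

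Of 54 measured mRNAs described as FMRP targets none was called, and 3 had lower and none higher values at an unadjusted p under 0.05, or 5.56% against 5.01% of all genes. These were the kinase gene Mtor at -0.18, the potassium channel gene Kcnd2 at -0.15 and Rgs4, a regulator of G protein signalling, at -0.18. The list median was -0.03, 33 of 54 values were below 0 (55.5% of all genes were), and every value lay between -0.26 and 0.16. After quantile normalization or median centring 31 and 30 of 54 were below 0. For 31 of 54 the interval excluded a difference of 0.3 in either direction.

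Metabotropic glutamate receptor signalling, which drives translation at synapses, held no call among 35 measured genes. Mtor at -0.18 and the phospholipase gene Plcb1 at -0.14 were lower and Mknk2, a kinase that phosphorylates eIF4E, higher at 0.18 at an unadjusted p under 0.05, and the median was -0.01. Of 14 glutamate receptor subunits and auxiliary subunits none reached that limit, and their values lay between -0.15 (Cacng3) and 0.13 (Grid1), with only 5 intervals inside 0.3.

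Of 20 measured genes of GABA-A receptors and GABA metabolism none was called, 18 had values below 0 (16 after either rescaling of the arrays), and the list median was -0.07. Over all 9693 genes 5378 were below 0, and 4556 and 4518 after quantile normalization and median centring. Gabrg1, which encodes the gamma-1 receptor subunit, had WT arrays at 6.37, 6.66 and 6.90 and Fmr1 KO arrays at 6.02, 6.41 and 6.46, a difference of -0.32 (limma adjusted p = 0.766). It was lower in 6 of 6 same-numbered pairs, and the groups overlapped. Gabra3 was the only other member with an unadjusted p under 0.05. The subunit genes Gabra2, Gabra4 and Gabra5 stood at -0.15, -0.11 and -0.07, Gabrb1 at -0.06 and Gabrb2 at 0.00, Gabrd at -0.12 and Gabrg3 at 0.00.

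The genes of GABA synthesis, Gad1 and Gad2, stood at -0.03 and -0.08, the breakdown genes Abat and Aldh5a1 at -0.10 and -0.07, and the transporter genes Slc32a1 and Slc6a11 at 0.06 and -0.03. The chloride transporter genes Slc12a2 and Slc12a5 stood at -0.09 and -0.02, the anchoring protein gene Gphn at -0.03, Gabarap at 0.05 and the GABA-B receptor gene Gabbr1 at -0.04. None passed, and 11 of the 20 intervals lay within 0.3 of 0.

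Among the lists, those of translation and energy supply had the largest shares of measured members with intervals within 0.3 of 0. Of 79 listed ribosomal protein genes 41 were measured. None of the 41 reached an unadjusted p under 0.05, their median was 0.02, and 40 of 41 intervals lay within 0.3 of 0. Values below 0 were those of 16 of the 41 (11 and 6 after quantile normalization and median centring). The counts over all genes are given above with the GABA genes. Rpl27a stood at 0.13 and Rpl27 at 0.08. Of 39 translation factors 38 intervals were inside that range, and the elongation factor gene Eef1d at 0.12 alone had an unadjusted p under 0.05. All 48 oxidative phosphorylation genes were inside it, with values between -0.11 and 0.05, and none reached an unadjusted p under 0.05. The share inside this range over all genes was 75.7%.

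Lists of regulated programmes gave scattered values. Of 24 integrated stress response genes none reached an unadjusted p under 0.05. Of 21 measured cholesterol synthesis genes Nsdhl was the only member that did, and 19 intervals lay within 0.3 of 0 while Insig1 stood at 0.10. Of 22 immediate early genes 2 had lower values at that limit, Gadd45g at -0.30 and Ier3 at -0.14. Of 19 cell cycle genes 2 did, Ccna2 at -0.23 and Rrm1 at -0.20, and 15 values were below 0 (14 after either rescaling). Counts below 0 over all genes, before and after rescaling, are given above with the GABA genes. Of 33 chromatin regulators linked to intellectual disability Crebbp stood at -0.14 and Smarca4 at 0.13. None of these genes passed (limma adjusted p = 0.982 for the last 6).

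**Figure D4:**
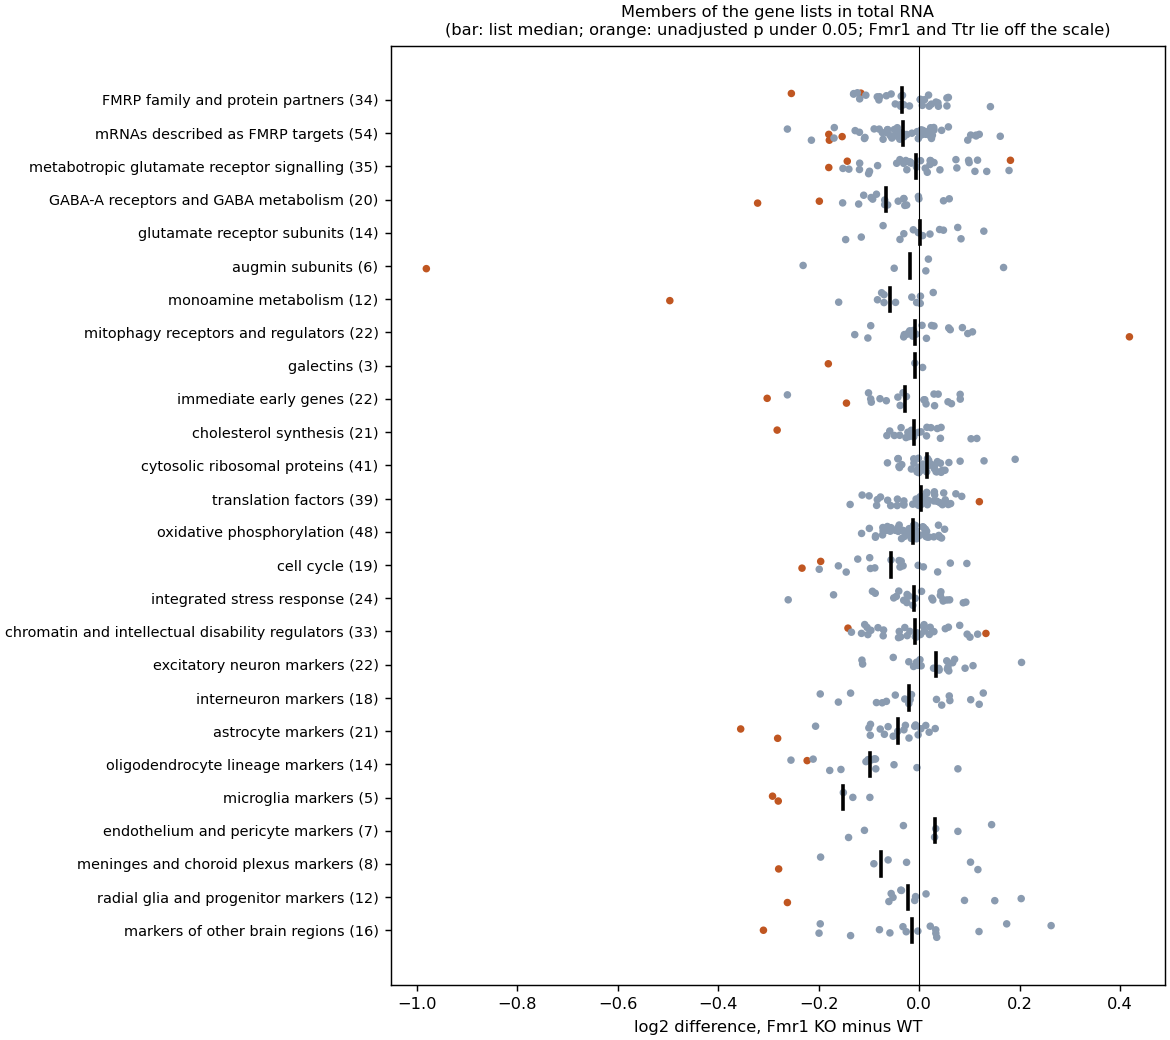
Log2 difference between Fmr1 KO and WT total RNA (x axis) for each measured member of the gene lists (rows, with the number measured), with a black bar at the list median and orange points at an unadjusted p under 0.05. Medians lie between -0.15 (microglia markers) and 0.03 (excitatory neuron markers), and Haus7, Maob and Fundc2 stand apart from the other members of their lists.

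Of the 9 marker lists, summed levels varied least between pools for excitatory neurons and most for meninges and choroid plexus. The summed level of the 22 excitatory neuron markers had a log2 value of 14.75 to 14.81 over WT pools and 14.76 to 14.80 over Fmr1 KO pools, and none of the 22 reached an unadjusted p under 0.05. The 18 measured interneuron markers also held none, with summed levels of 13.64 to 13.82 and 13.56 to 13.77. Values below 0 were those of 8 of the 22 excitatory neuron markers (5 and 4 after quantile normalization and median centring). Of the 18 interneuron markers 11 were below 0 (10 after either rescaling). The groups overlapped in each of the 9 marker lists with measured members.

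Glial markers leaned below 0 without a call. Over all 9693 genes 5378 were below 0, and 4556 and 4518 after quantile normalization and median centring. Of 21 measured astrocyte markers 17 had values below 0 (15 and 14 after quantile normalization and median centring), and Ppp1r3c at -0.28 and Ntsr2 at -0.36 had an unadjusted p under 0.05. Of 14 measured oligodendrocyte lineage markers 13 were below 0 (12 after either rescaling), with a median of -0.10 and Gal3st1, an enzyme of myelin sulfatide synthesis, at -0.22. All 5 measured microglia markers were below 0, with a median of -0.15, Aif1 at -0.29 and C1qb at -0.28, but 14 of the 19 on the array were below the filter. The summed level of the microglia markers was 8.70 to 9.15 over WT pools and 8.46 to 8.98 over Fmr1 KO pools, and that of the oligodendrocyte markers 11.64 to 12.20 and 11.46 to 12.19. These ranges overlapped, none of the genes passed, and the part of cell makeup in the values of single genes was not tested.

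Vascular markers, 7 measured, held none with an unadjusted p under 0.05, and Egfl7 at 0.14 and Vtn at -0.14 were those with the smallest p. Of the 19 on the array 12 were below the filter, Cldn5, Pecam1 and Cdh5 among them. Of 12 radial glia and progenitor markers Notch1 stood at -0.26 and Tnc at 0.20. Of 16 markers of other brain regions the axon guidance gene Ntng1, found in thalamus, stood at -0.31, and Calb2 at -0.20. None passed. The 8 measured meninges and choroid plexus markers included Col3a1 at -0.28, Col8a1 at -0.20 and Ttr.

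The largest spread within a genotype was that of Ttr, which encodes the thyroxine carrier transthyretin and is made by the choroid plexus. In WT total RNA it stood at 11.43, 10.72, 3.37, 10.93, 6.92 and 10.20 in pools 1 to 6. In Fmr1 KO it stood at 3.02, 10.66, 2.65, 10.99, 11.30 and 2.86. High and low pools occurred in each genotype, and the difference of -2.02 had a 95% interval of -6.10 to 2.07. The summed level of the meninges and choroid plexus markers, Ttr included, had a range of 10.78 to 12.23 over WT pools and 10.43 to 12.04 over Fmr1 KO pools.

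Other genes with a large spread were Penk, which encodes enkephalin precursors, Fam107a, an actin-associated stress-response gene, Abi3bp, Mpst, Islr2, Baalc and AY036118. Penk lay between 6.61 and 8.43 in WT and between 6.36 and 8.66 in Fmr1 KO, with a difference of 0.03. Fam107a lay at 5.70 to 7.61 and 5.68 to 7.41. The WT and Fmr1 KO arrays overlapped for each of these 8 genes (limma adjusted p = 0.999 each).

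The first principal component of the 12 arrays, with 28.6% of the variance, did not separate the genotypes. Pools 5 and 6 had positive scores of 10.6 to 22.9 in each genotype, and pools 2 and 3 negative scores of -22.5 to -8.38. Penk, Mbp and Fam107a lay at its low end and Ttr at its high end. The weight of Ttr was larger on the second component (0.329, against 0.0497 on the first), where Fmr1 also lay at the high end (0.0821). The WT and Fmr1 KO arrays of number 3 stood at -9.30 and -22.5 on the first component, the widest pair along it.

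**Figure D5:**
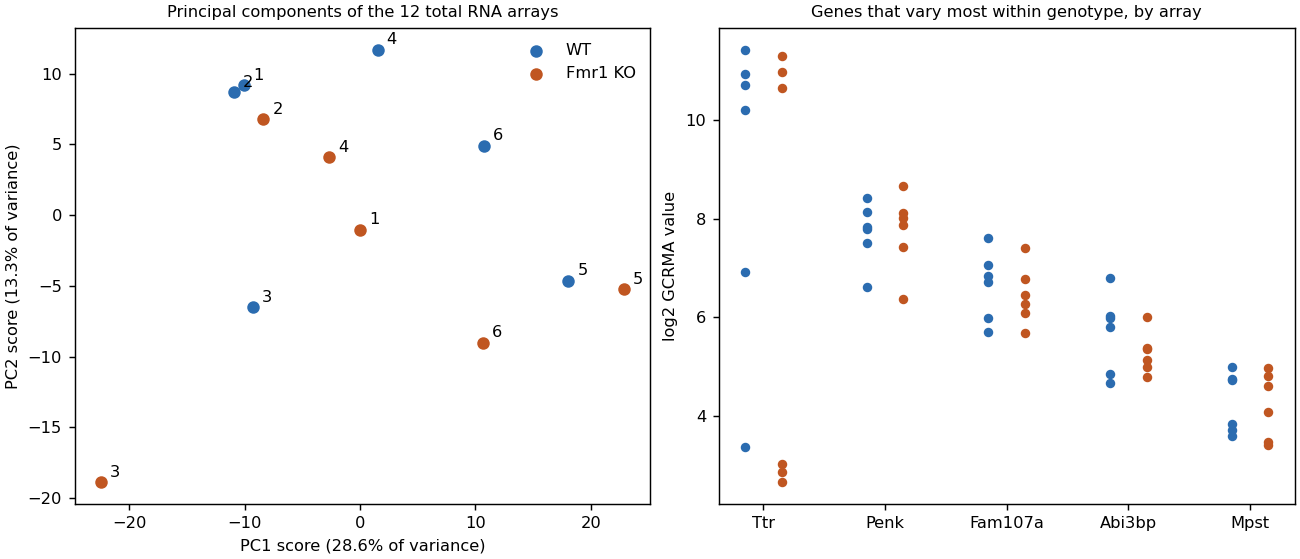
Left, scores of the 12 total RNA arrays on the first 2 principal components (28.6% and 13.3% of the variance), labelled by replicate number. Right, log2 values of each array for 5 of the genes that vary most within a genotype. The genotypes mix along the first component, and Ttr runs from 3.37 to 11.43 in WT and from 2.65 to 11.30 in Fmr1 KO.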

How the data were processed

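The authors deposited log2 values made with GCRMA, per the submitters' processing notes, a method that corrects background, normalizes arrays and summarizes probe sets. The log2 scale was judged from their range. The GCRMA version and the set of arrays normalized jointly are not given in the sources used here. In the platform annotation 34945 of 45037 probe sets carry exactly 1 symbol, 932 carry several and 9160 carry none. Probe sets without exactly 1 symbol were tested but not named. X-linked gene order came from the RefSeq annotation of GRCm38.p6. Many listed genes had no probe set of their own here or were below the filter, and were not analysed here.

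The 6 Fmr1 KO and 6 WT arrays were fitted with lmFit and eBayes of limma 3.58.1 (R 4.3.3). Two-sided p-values were adjusted by Benjamini-Hochberg over 17850 probe sets, with a threshold of 0.05. Adjusted p-values in the text are from limma. A gene was represented by the probe set with the highest mean over the 12 arrays unless a probe set is named. Polyribosomal arrays were fitted in the same way, and the within-lysate differences of total and polyribosomal values were compared between genotypes. A summed marker level is the log2 of the summed linear values of the measured markers. The fit was tested on simulated data. Plots used matplotlib 3.10.9 (Python 3.11.15).

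Named were genes called at any probe set, the 12 rises and 12 falls with the smallest p, the 2 members of each list with the smallest p, X-linked genes among the 50 nearest to Fmr1 on either side with an unadjusted p under 0.05, the 8 genes of largest spread, and all measured members of the augmin, monoamine, galectin and GABA lists. Rgs4, Plcb1, Slitrk4, Sox3, Gm715, Mcf2, Ids, Eola1, Tmem185a, Mtm1, Mtmr1, Cd99l2 and Fundc1 were chosen after their values were seen. Comparisons, lists and members were chosen with earlier results of these data known.

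The study was set up with WT and Fmr1 null littermates, but the labels do not say that a replicate number marks a litter. The residuals of WT and Fmr1 KO total arrays of equal number, after removing genotype means, correlated at 0.132 to 0.538 in all 6 pairs, so the number was taken to pair them, although 2 of the 6 WT arrays correlated best with a Fmr1 KO array of another number (WT 1 with Fmr1 KO 3, WT 6 with Fmr1 KO 5). The main fit had no block, so counts, intervals and p-values are unpaired unless the block is named. The fit with the number as a block was an alternative and stands beside the calls it changes. Alternatives were the filter, a replicate block, 2 rescalings, trend and robust priors, array weights, all 24 arrays in 1 fit, other choices of probe set, and leaving out each array.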

Additional observations from a re-analysis of the deposited data

Results flagged for a closer look

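In 9 of 176 groups of 6 arrays (88 named probe sets in each genotype), the highest or lowest array lay apart from the others by more than the 95% limit of Dixon's test allows. Chance gives such a gap in about 1 of 20 groups. No array held more than 2 of the 9.

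Cd276 stood at 5.766 in Fmr1 KO array 5, below the other Fmr1 KO arrays at 5.91 to 5.978. Kcnk3 stood at 4.065 in WT array 5, below the other WT arrays at 4.245 to 4.324. At the Lgals1 probe set with the stronger signal, Fmr1 KO array 1 stood at 8.169, below the others at 8.259 to 8.31. Aif1 stood at 7.194 in Fmr1 KO array 2, above the others at 6.679 to 6.798. Rtl8c stood at 8.572 in WT array 1, below the others at 8.803 to 8.887.

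Smarca4 stood at 10.33 in WT array 3, below the others at 10.57 to 10.66. Gabra3 stood at 8.316 in Fmr1 KO array 5, below the others at 8.648 to 8.786. Xbp1 stood at 10.3 in WT array 1, above the others at 10.06 to 10.14. Cacng3 stood at 7.952 in WT array 3, above the others at 7.423 to 7.619.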

How the results depend on the processing

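With the replicate number as a block 4 of 7 probe sets were called, those of Fmr1 and Haus7, and the calls of Maob, Fundc2 and Lgals1 were lost. With all 24 arrays in 1 fit 4 were called as well, and 4 in place of 7 of the 50 X-linked genes nearest to Fmr1 had lower values at an unadjusted p under 0.05. The cause was not tested. The other settings called 5 to 8 probe sets, with 8 when no filter was used and 5 with a filter at a log2 of 5, which left Maob and 1 Fmr1 probe set untested. Leaving out 1 array at a time called 6 to 7, and gave 5 to 9 of the 50 X-linked genes. Fmr1 then stood between -3.33 and -3.22, -2.34 and -2.18, and -1.08 and -0.96 at its 3 probe sets. Haus7, Maob and Fundc2 were called in each of these 12 omissions. Lgals1 was also lost after quantile normalization (adjusted p = 0.0789), median centring (0.0754) and with trend and robust priors (0.107, limma in each case), and Hebp1 was called without WT array 3 (adjusted p = 0.0371). With the mean of a gene's probe sets 3 genes were called, without Fundc2, and with any probe set 5. Values at dim probe sets carry the least weight, since those under the filter of 4 were not tested and Maob lay just above it. None of the called values changed sign.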
